A study of Mus musculus with 8 samples.

Results

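Interferon-stimulated genes were followed across the leukocytes of arthritic paw joints as a list of 37 genes, picked by name from genes that interferons are known to induce. All 37 of the 37 were found in both UMI tables, among 28434 gene rows. All mice were C57BL/6 and were made arthritic by 3 injections of K/BxN serum (100 µL each, at day 0, day 2 and day 9), whose antibodies inflame the joints. Each then received, at day 12, 2000000 bone marrow monocytes from arthritic C57BL/6 donors, kept beforehand for 90 min with vehicle (Mono, 4 mice) or with 1 nM of the pro-resolving lipid mediator MCTR3 (Mono+MCTR3, 4 mice). CD45+ cells were sorted from the joints on day 22 and profiled by droplet sequencing of 3′ ends, so both groups carry the serum arthritis and transferred cells, there is no group without transfer, and transferred cells were not told apart from those of the host. Mice within a group are known here by barcode suffix alone, and the suffix does not say which labelled sample a mouse is.

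After the filter 10256 cells remained, 5241 from Mono and 5015 from Mono+MCTR3 mice. The cells of a mouse held 1731045 to 6009009 UMIs, and a UMI stands for 1 captured transcript, whatever its length. Clusters were named from markers and built without the listed genes. They gave 6974 neutrophils, 1411 B-cells, 762 T-cells, 634 NK (natural killer) cells and 351 monocyte-derived macrophages and monocytes (MDM). MDM were few in some mice, with 8 and 6 cells in Mono+MCTR3 mice 3 and 4. A cluster of 20 fibroblast-like cells, 18 of them from Mono mice, shows that the sorted cells were not all leukocytes. The listed genes held 27846 of 26420247 UMIs; 8 of them had at least 1000 UMIs and 4 had under 100.

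Type I interferons act through the receptor Ifnar1 and Ifnar2, and interferon gamma through Ifngr1 and Ifngr2. Both receptors signal through Janus kinases. Stat2 and Irf9 are parts of a factor that binds the interferon-stimulated response element, a DNA motif of promoters that type I interferon switches on, whereas the gamma-activated sequence is the motif known for the response to interferon gamma. The induced proteins sense foreign nucleic acid (Ddx58, Ifih1, Dhx58, Zbp1, Ifi204) or hold back viral RNA (the IFIT and OAS families). Others modify or block proteins of the virus and the cell (Isg15, Rsad2, Bst2) or feed back on the pathway (Irf7, Irf9, Stat2, Usp18). Igtp, Irgm1, Ifi47 and Gbp2 take part in the defence against pathogens held in vacuoles. Neutrophils, monocytes and lymphocytes all carry these receptors and can respond.

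RefSeq promoters (GRCm38.p6, 250 bases before to 50 after the start of each gene) were held for 29 of the 37. The core of the response element, searched on both strands as GAAA, any 2 bases and a second GAAA, was found in 16 of these 29 (55.2%) and in 3.99% of 27025 gene promoters. The gamma-activated sequence TTCNNNGAA was found in 5 of the 29 (17.2%) and in 9.55% of all. Windows of 5 genes are printed 5′ to 3′ on the strand of the gene, because their values recur below; capitals mark the matched core, and neighbouring cores may overlap.
Isg15, chr4:156200855-156200916, minus strand: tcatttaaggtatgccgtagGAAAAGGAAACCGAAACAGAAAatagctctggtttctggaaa
Ifit3, chr19:34583353-34583436, plus strand: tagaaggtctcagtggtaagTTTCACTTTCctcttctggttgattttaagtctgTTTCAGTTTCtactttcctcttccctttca
Ifit1, chr19:34640765-34640833, plus strand: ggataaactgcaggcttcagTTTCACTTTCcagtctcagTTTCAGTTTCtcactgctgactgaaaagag
Bst2, chr8:71537567-71537622, minus strand: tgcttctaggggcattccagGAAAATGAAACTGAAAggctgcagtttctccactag
Igtp, chr11:58199502-58199551, plus strand: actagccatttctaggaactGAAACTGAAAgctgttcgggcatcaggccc
The cores begin 78 to 66 bases before the start of Isg15, 156 and 122 before that of Ifit3, 104 and 85 before that of Ifit1, 130 and 124 before that of Bst2 and 34 before that of Igtp. The promoters of Slfn1, Ms4a4c, Irf7 and Ifi47 held no match in this window. Ifit1, Ifit2, Ifit3 and Ifit3b lie together on chromosome 19, between positions 34550694 and 34650009 of GRCm38.

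The summed level of the 37 genes was highest in MDM, and neutrophils, T-cells, NK cells and B-cells lay close together. In MDM it was 1670, 3014, 1146 and 2850 CPM, the UMIs of the genes per 1000000 UMIs of a class within a mouse, in Mono mice 1 to 4, and 1545, 1568, 545 and 1815 CPM in Mono+MCTR3 mice 1 to 4. Neutrophils held 1146, 1551, 1082 and 766 CPM in the Mono mice and 926, 663, 878 and 1105 CPM in the Mono+MCTR3 mice. MDM lay above neutrophils in 7 of 8 mice, and above B-cells in all 8. The medians over the 8 mice were 1619 CPM in MDM, 1004 in neutrophils, 893 in T-cells, 766 in NK cells and 761 in B-cells. The ranges over mice overlapped for every pair of these 5 classes. A further 49 cells that carried the markers of plasmacytoid dendritic cells (pDC-like) stood apart at 4500 to 5481 CPM, and 1140 of their 1424 listed UMIs came from Bst2, the membrane protein tetherin. With every cell thinned to 500 UMIs, a listed UMI was expected in 33.7% of neutrophils, 45.4% of MDM, 32.6% of T-cells, 31.2% of NK cells and 28.5% of B-cells. Without thinning the share was lowest in neutrophils, at 67.6%, against 92.0% of MDM, 88.2% of T-cells, 80.4% of NK cells and 71.2% of B-cells. The median depth was 1722 UMIs per neutrophil against 6347 per MDM.

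**Figure D1:**
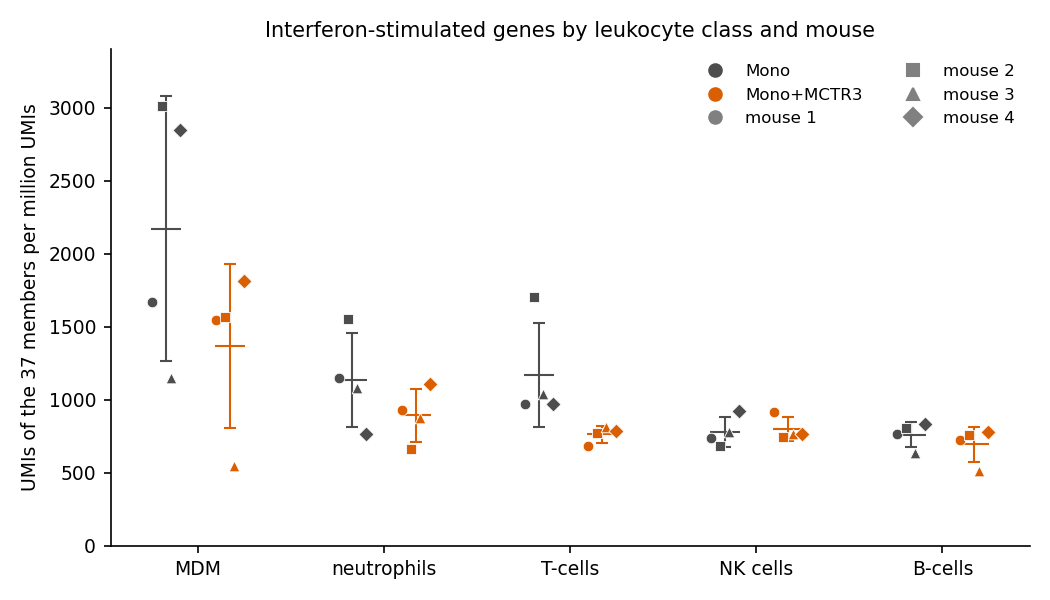
Summed level of the 37 genes in CPM for each cell class, 1 point per mouse, with lines for the mean and SD of a group. MDM reach the highest values among the 5 large classes, and Mono mouse 2 is the highest point in neutrophils, T-cells and MDM but not in B-cells or NK cells.

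Different genes made up that sum in different classes. By the median over mice, 11 genes were placed highest in MDM, 10 in neutrophils, 6 in T-cells, 5 in B-cells and 5 in NK cells. The 10 count Ifi44, which had 3 UMIs and a median of 0 in every class, and so no highest class. Only Oas1a in MDM, Igtp in T-cells and Slfn1 in neutrophils had a range over mice apart from that of the next class. Isg15 and Isg20 were also highest in neutrophils in each of the 8 mice. For all genes but Oas1a, Igtp and Slfn1, the ranges over mice of the leading and the next class overlapped. Such ranges do not compare the classes within a mouse.

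In neutrophils the genes with the most UMIs were Isg15, the ubiquitin-like modifier, Slfn1, a schlafen protein, and Rtp4, a receptor chaperone. Isg15 measured 285, 376, 304 and 192 CPM in Mono mice 1 to 4 and 197, 134, 184 and 289 CPM in Mono+MCTR3 mice 1 to 4. Slfn1 measured 228, 284, 209 and 185 CPM in the Mono mice against 210.2, 148, 239 and 265 CPM in the Mono+MCTR3 mice. Mono mouse 2 was the highest for both, and the groups overlapped for both. Rtp4 ranged from 34.8 to 179 CPM, with both ends in Mono mice. Rsad2, or viperin, measured 66.6, 99.7, 63.1 and 36.5 CPM in Mono and 53.2, 28.8, 36.0 and 41.6 CPM in Mono+MCTR3 mice, and the exonuclease gene Isg20 had a median of 46.0 CPM. The median of Isg15 was 241 CPM in neutrophils against 51.0 in MDM, and that of Slfn1 was 219 against 52.6. Mx1, a classical antiviral GTPase, had only 5 UMIs in all neutrophils.

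Because neutrophils were the most numerous cells, RNA free in the droplets was gauged with their own abundant transcripts. S100a8 in other classes stood at 1.11% to 2.44% of its neutrophil level (medians over mice). Isg15 stood at 4.08% of it in B-cells, 15.0% in T-cells, 13.8% in NK cells and 18.4% in MDM. Slfn1 stood at 2.21% in B-cells, at or below the S100a8 value there, and at 0 in NK cells. Over mice it reached 9.23% in B-cells and 6.34% in NK cells, where S100a8 reached 4.47% and 2.41%. Whether Slfn1 is background in these classes was not tested.

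MDM were richest in Ms4a4c, a membrane protein of monocytes and lymphocytes. Ms4a4c measured 477, 598, 351 and 654 CPM in the Mono mice and 468, 377, 124 and 546 CPM in the Mono+MCTR3 mice. Its median of 473 CPM compares with 125 CPM in B-cells and 2.16 CPM in neutrophils. The DNA sensor gene Ifi204 measured 109, 339, 80.8 and 173 CPM in Mono and 132, 108, 24.8 and 137 CPM in Mono+MCTR3 MDM. The groups overlapped for both genes, and Mono+MCTR3 mouse 3, with its 8 MDM, was lowest for both. Bst2 had a median of 166 CPM in MDM and 7.4 CPM in neutrophils. In pDC-like cells Bst2 reached 4135 CPM (exact Poisson 95% interval 3898 to 4382, counting error only) and was seen in all 49 cells, and it stood among the leading genes of that cluster although it took no part in the clustering.

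The 4 interferon-inducible GTPases Ifi47, Igtp, Irgm1 and Gbp2 together had medians of 240.2 CPM in T-cells (163 to 351 over mice), 209 in NK cells (142 to 260.1), 106 in B-cells (78.6 to 151) and 28.1 in neutrophils (15.4 to 37.2). MDM, with a median of 92.7 CPM, ran from 0 to 232 and overlapped all of these. In T-cells Ifi47 measured 211, 122, 143 and 146 CPM in the Mono mice and 103, 121, 81.5 and 118 CPM in the Mono+MCTR3 mice, with no overlap. Igtp had medians of 44.9 CPM in T-cells and 24.4 in NK cells. In NK cells Ifi47 measured 166, 100.5, 102 and 155 CPM in Mono and 176, 123, 97.9 and 156 CPM in Mono+MCTR3 mice, which overlapped throughout. Irf7, which amplifies interferon transcription, had medians of 122 CPM in NK cells and 84.5 in MDM, and Zbp1, a sensor of Z-form nucleic acid, 77.8 CPM in NK cells. In B-cells the leading genes were Ms4a4c, Bst2 (78.1 CPM), the ubiquitin ligase gene Trim30a (64.0) and Irf9 (60.3). Ms4a4c in B-cells lay between 117 and 141 CPM in 7 mice and at 70.3 CPM in Mono mouse 3.

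**Figure D2:**
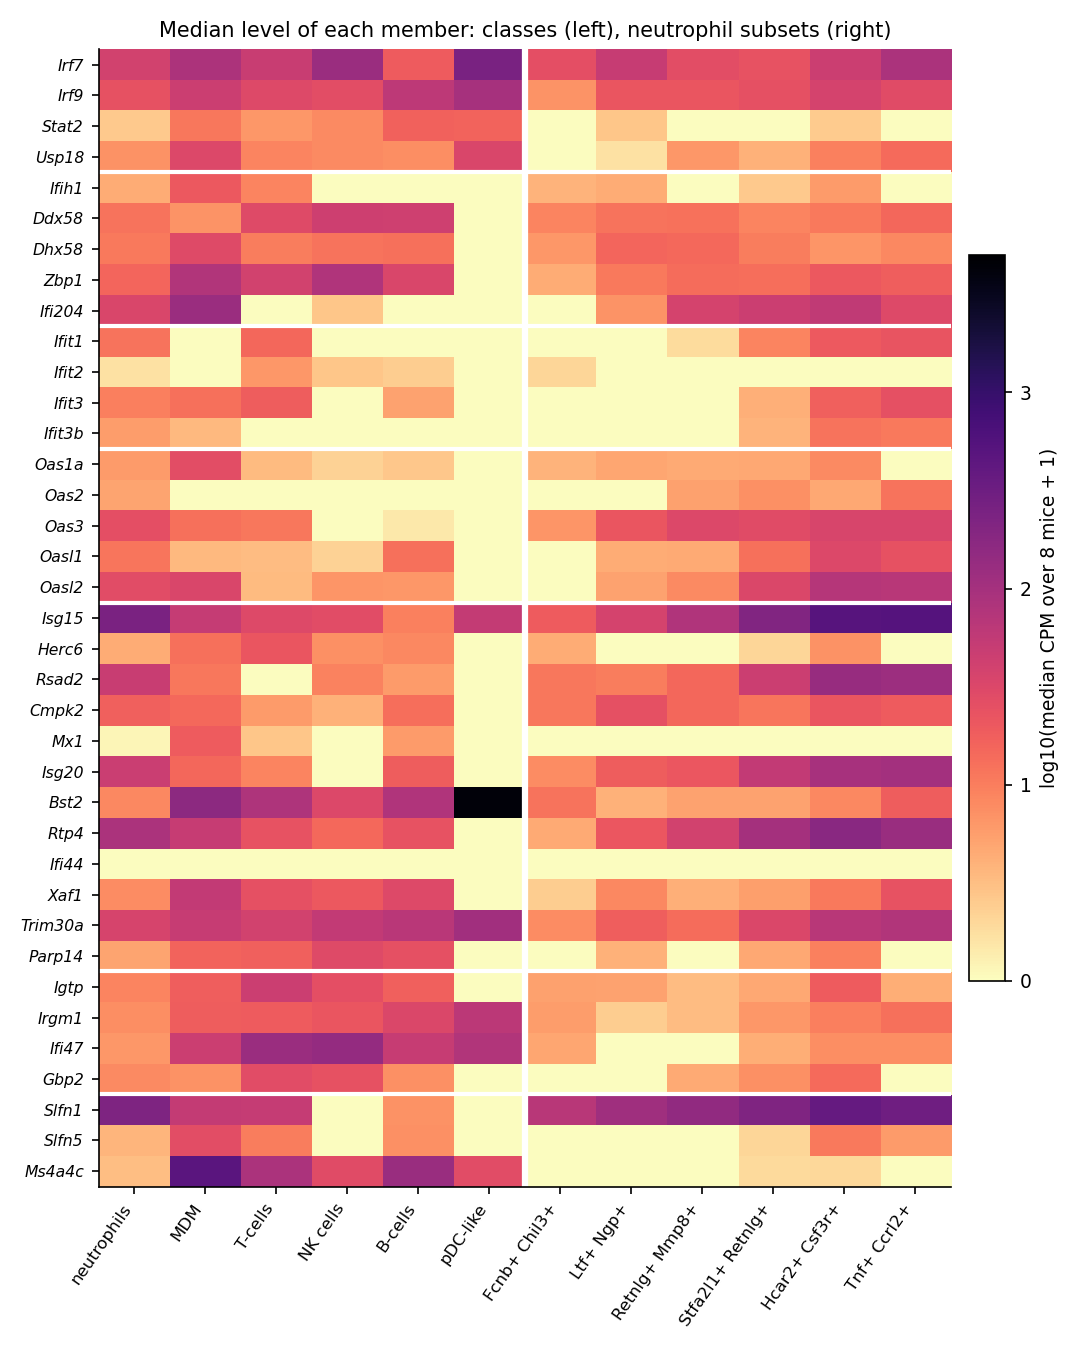
Median CPM over the 8 mice of each of the 37 genes by class and by neutrophil subset, on a log colour scale. Isg15 and Slfn1 are darkest in neutrophils, Ms4a4c and Ifi204 in MDM, Ifi47 in T-cells and NK cells and Bst2 in pDC-like cells, and most genes deepen in colour towards the Hcar2+Csf3r+ and Tnf+Ccrl2+ subsets.

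No single mouse carried the genes in every class. Mono mouse 2 had the highest sum in neutrophils (1.67 times the median of the other 7 mice), T-cells (2.09 times) and MDM (1.92 times), but the lowest in NK cells (0.892 times), and Mono mouse 4 was highest in NK cells and B-cells. Of the genes with at least 50 UMIs in a class, Mono mouse 2 was the highest for 17 of 31 in neutrophils, 10 of 19 in T-cells, 9 of 21 in MDM, 2 of 16 in B-cells and 0 of 8 in NK cells.

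Among neutrophils the genes followed the subsets. The 6 subsets are named here by leading genes. They ran from Fcnb+Chil3+ cells (411), whose leading genes include Top2a and Rrm2 of DNA replication, through Ltf+Ngp+ (626), Retnlg+Mmp8+ (788) and Stfa2l1+ cells (1927) to Hcar2+Csf3r+ (2693) and Tnf+Ccrl2+ cells (529). The median sum over the 8 mice was 239 CPM in Fcnb+Chil3+, 422 in Ltf+Ngp+, 567 in Retnlg+Mmp8+, 1844 in Hcar2+Csf3r+ and 1791 in Tnf+Ccrl2+ cells, and Stfa2l1+ cells lay between 746 and 1170 CPM. Hcar2+Csf3r+ cells lay above the 4 subsets listed first in each of the 8 mice, with ranges apart, and 7.34 times (median over mice, 4.33 to 12.4) above Fcnb+Chil3+ cells. Hcar2+Csf3r+ and Tnf+Ccrl2+ cells could not be put in order, the former being higher in 5 of 8 mice. With every cell thinned to 500 UMIs, a listed UMI was expected in 11.2% of Fcnb+Chil3+ cells. It was expected in 44.4% of Hcar2+Csf3r+ and 43.2% of Tnf+Ccrl2+ cells. A thinned share is set against the total UMIs of a cell, as the sums are, so it is not a separate measure. Without thinning the share was 70.6% in Fcnb+Chil3+, 70.0% in Hcar2+Csf3r+ and 67.5% in Tnf+Ccrl2+ cells. Depth ran in the opposite direction, from a median of 6321 UMIs per cell in Fcnb+Chil3+ cells to 1340 in Hcar2+Csf3r+ and 1339 in Tnf+Ccrl2+ cells, and its part in the order of the sums was not tested. Hcar2+Csf3r+ cells made up 38.6% of neutrophils and held 48.1% of their listed UMIs, and Tnf+Ccrl2+ cells made up 7.59% and held 10.2%.

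Single genes shared this slope to different degrees. Isg15 had medians of 18.1 CPM in Fcnb+Chil3+, 205 in Stfa2l1+, 508 in Hcar2+Csf3r+ and 531 in Tnf+Ccrl2+ cells. Rsad2 went from 10.1 CPM in Fcnb+Chil3+ to 130.0 in Hcar2+Csf3r+ cells, Rtp4 from 3.53 to 174 and Slfn1 from 65.5 to 377. By the median, 19 genes were placed highest in Hcar2+Csf3r+ and 14 in Tnf+Ccrl2+ cells. The 19 count Mx1 (5 UMIs) and Ifi44 (0 UMIs), whose medians were 0 in every subset, so these 2 genes had no highest subset. The helicase gene Dhx58, the kinase gene Cmpk2 and Stat2 were highest in Ltf+Ngp+ cells and Ifit2 in Fcnb+Chil3+ cells, with overlapping ranges; Dhx58 lay between 5.40 and 14.7 CPM in every subset by the median.

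**Figure D3:**
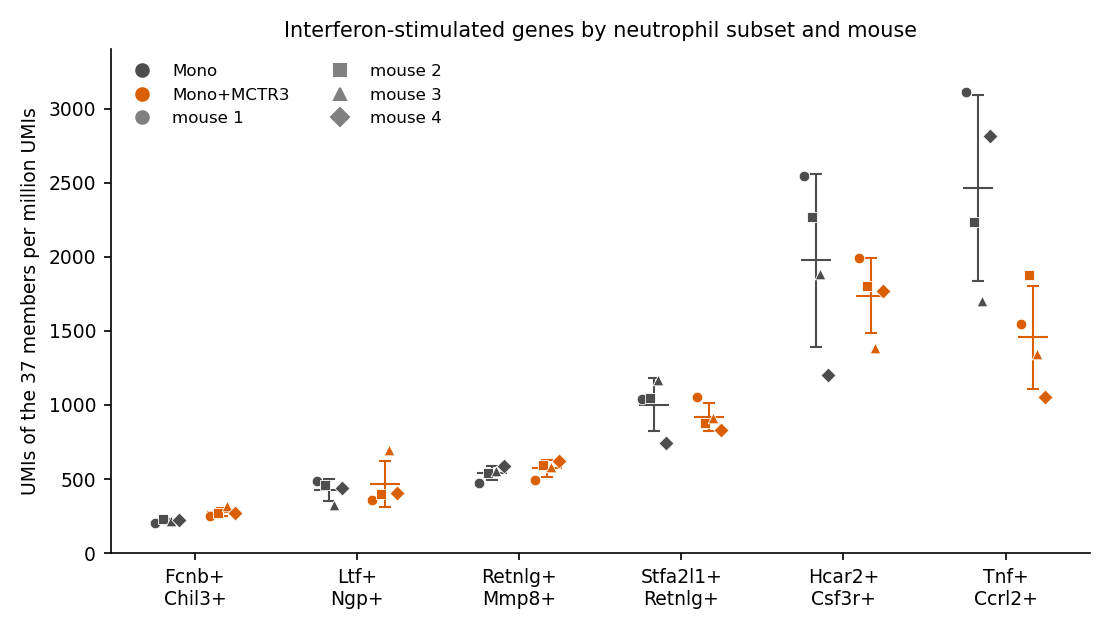
Summed level of the 37 genes in CPM in each neutrophil subset, 1 point per mouse, with lines for the mean and SD of a group. Values climb from 205 to 320 CPM in Fcnb+Chil3+ cells to 1203 to 2542 CPM in Hcar2+Csf3r+ cells, in mice of both groups.

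The mix of subsets differed between mice. Hcar2+Csf3r+ cells made up 31.5%, 61.4%, 49.9% and 30.2% of neutrophils in Mono mice 1 to 4 and 32.5%, 13.4%, 40.6% and 50.9% in Mono+MCTR3 mice 1 to 4. Mono mouse 2 had the largest share and the highest neutrophil sum, and Mono+MCTR3 mouse 2 the smallest share and the lowest sum. With each mouse given the same mix of subsets, the sums were 1195, 1097, 982 and 795 CPM in Mono and 978, 930, 864 and 876 CPM in Mono+MCTR3 mice, and Mono mouse 1 was then the highest. The group means were 1136 ± 323 and 893 ± 182 CPM (SD, n = 4) as measured, and 1017 ± 172 and 912 ± 52.5 CPM with the same mix. When clustering was repeated with the listed genes included, 178 neutrophils (2.55%) formed a cluster led by interferon-stimulated genes, which held 21.8% of the listed UMIs of neutrophils. This cluster was defined by the genes themselves and is only described. It held 29, 62, 27 and 9 cells in the Mono mice and 18, 11, 8 and 14 in the Mono+MCTR3 mice, and 140 of its cells were Hcar2+Csf3r+. The neutrophils outside it had sums of 837 ± 170 CPM in Mono and 770 ± 123 CPM in Mono+MCTR3 mice (SD, n = 4).

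A small number of cells held many of the genes at a time. At least 10 different listed genes were seen in 59 neutrophils (11.6% of the listed UMIs of the class), 12 T-cells (20.2%), 57 MDM (55.7%), 8 B-cells and 2 NK cells. The 57 MDM numbered 6, 4, 3 and 22 in the Mono mice and 5, 16, 0 and 1 in the Mono+MCTR3 mice, and all were of the F13a1-led MDM cluster. In T-cells, 1 cell of Mono mouse 2 held 172 listed UMIs among its 2404, from 30 of the genes, with 35 of Isg15 and 33 of Ifit1, and a second cell of this mouse held 134. Deep cells can show more genes, and these counts were not thinned. Without the 2 richest cells of each mouse, the T-cell sum was 908, 902, 652 and 925 CPM in Mono and 647, 706, 785 and 662 CPM in Mono+MCTR3 mice, so Mono mouse 2 no longer stood out.

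**Figure D4:**
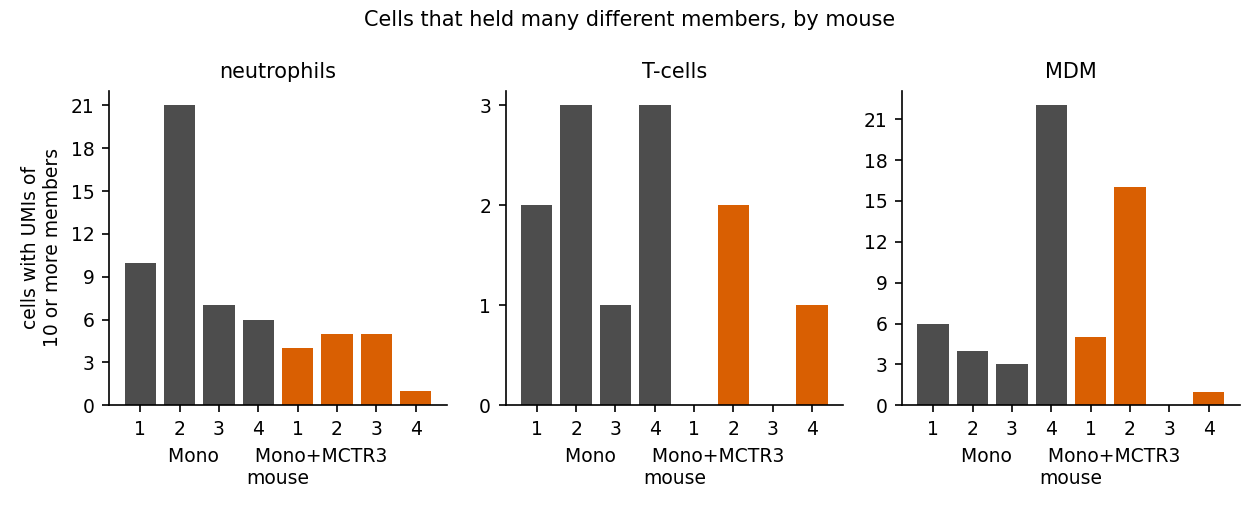
Number of cells per mouse with at least 10 different listed genes, by class. The neutrophil bars peak at 21 cells in Mono mouse 2 and the MDM bars at 22 cells in Mono mouse 4.

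Mono+MCTR3 mice were then compared with Mono mice. Sums were lower on average in Mono+MCTR3 mice in T-cells (763 ± 57.4 against 1171 ± 356 CPM, SD, n = 4), MDM (1368 ± 562 against 2170 ± 908) and B-cells (693 ± 121 against 759 ± 86.4), and 799 ± 79.3 against 781 ± 104 CPM in NK cells. The groups overlapped in every class but T-cells, and there too once the single richest cell of each mouse was left out (700.0 to 1253 CPM in Mono and 665 to 797 CPM in Mono+MCTR3 mice), with the difference of means going from -407 to -237 CPM, and to -147 CPM without the 2 richest cells. No p is given for a sum, as the genes were listed with earlier results of these data known. Gene by gene, edgeR's quasi-likelihood test on the UMIs of each mouse and class called none of the 37 at an adjusted p under 0.05 in any class. The background was as sparse. Of all genes tested, 0.0365% were called in neutrophils, 0.0222% in all cells together, and 0 in T-cells, B-cells, NK cells and MDM.

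The fold changes of the tested genes leaned below 0 in some classes. In neutrophils 25 genes could be tested, 20 had a negative log2 fold change (Mono+MCTR3 over Mono) and the median was -0.28, against 0.01 over all genes; 5 had an unadjusted p under 0.05, all lower, where 4.87% of all genes did. In T-cells 10 of 12 were negative (median -0.45, 6 with an unadjusted p under 0.05, as had 5.15% of all genes). In MDM 10 of 12 were negative (median -0.55, 3 with such a p, as had 5.99% of all genes), and in all cells together 26 of 34 (median -0.33, 8 with such a p, as had 4.40% of all genes). Over all genes tested, 48.4% were negative in neutrophils, 48.9% in T-cells, 51.6% in MDM and 48.6% in all cells. In that sum over all cells, fewer cells of a type and less RNA per cell cannot be told apart. In B-cells 4 of 9 were negative (median 0.06) and in NK cells 0 of 3 (median 0.16), with none at an unadjusted p under 0.05. The genes that reached the test were the more abundant ones, and genes of a cell can vary together, so these counts are not independent. A gene high in 1 group alone could also reach the test, as Ifit3 did in neutrophils. The list was chosen with earlier results of these data known, so the counts are description only. Without Mono mouse 2 the neutrophil median was -0.09, and within single subsets it ran from -0.35 in Tnf+Ccrl2+ cells (5 genes testable) to 0.10 in Retnlg+Mmp8+ cells (3 genes), with -0.18 in Hcar2+Csf3r+ (13 genes) and 0.02 in Stfa2l1+ cells (11 genes). Tnf+Ccrl2+ cells had sums of 2466 ± 627 CPM in Mono and 1457 ± 347 CPM in Mono+MCTR3 mice (SD, n = 4), and the groups overlapped.

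The abundant genes did not pass the test. In neutrophils, Isg15 had a log2 fold change of -0.49 ± 0.20 (SE, edgeR adjusted p = 0.931), Slfn1 of -0.04 ± 0.15 (0.995) and Rtp4 of -0.34 ± 0.34 (0.951). In MDM, Ms4a4c had -0.46 ± 0.30 (edgeR adjusted p = 0.884), Bst2 0.13 ± 0.30 (1.00) and Ifi204 -0.63 ± 0.43 (0.889). In T-cells Ifi47 had -0.49 ± 0.20 (edgeR adjusted p = 0.904), Bst2 -0.33 ± 0.23 (0.997) and Ms4a4c 0.07 ± 0.25 (0.999). In NK cells, Ifi47 had 0.16 ± 0.22 (edgeR adjusted p = 0.962), Irf7 0.22 ± 0.22 (0.953) and Zbp1 0.12 ± 0.23 (0.998), and in B-cells Ms4a4c had 0.19 ± 0.18, Bst2 0.08 ± 0.23 and Trim30a 0.07 ± 0.23 (each 1.00).

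Ifit3, which works with Ifit1 on viral RNA, was the gene furthest from 0 in neutrophils, and is named after its values were seen. It measured 13.9, 30.5, 11.9 and 11.8 CPM in Mono mice 1 to 4 and 5.47, 3.20, 2.28 and 3.47 CPM in Mono+MCTR3 mice 1 to 4, so every Mono mouse lay above every Mono+MCTR3 mouse. These levels rest on 159 UMIs in 1.26% of neutrophils. The filter on low counts asked for enough UMIs in any 4 of the mice, and Ifit3 met it in the Mono mice alone. Ifit3 was thus admitted through the group where it was high, so its test and its lack of overlap are description only. The log2 fold change was -2.16 ± 0.38 (SE), with an adjusted p of 0.203 by the edgeR quasi-likelihood test. It passed by edgeR's likelihood ratio test (adjusted p = 0.000242, where 0.146% of all genes were called), by DESeq2 (0.00393; 0.0365%) and without the filter on low counts (9.25e-05; 0.227%), so the call depends on the method. Ifit1, its neighbour, measured 21.7, 16.4, 14.3 and 7.30 CPM in Mono and 15.4, 4.94, 4.57 and 6.07 CPM in Mono+MCTR3 neutrophils, which overlapped.

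Ifit3 in all cells together measured 11.1, 35.8, 10.8 and 19.6 CPM in Mono and 5.42, 6.16, 3.61 and 5.2 CPM in Mono+MCTR3 mice (log2 fold change -1.77 ± 0.38, edgeR adjusted p = 0.586). Both Ifit3 and Ifit1 were called there by the likelihood ratio test (0.222% of all genes), and Ifit3 by DESeq2 (0.156%). In all cells, 5 of 34 genes did not overlap between groups, each lower in Mono+MCTR3 mice: Ifit1, Ifit3, Zbp1, Gbp2 and Ddx58. Of all 9002 genes tested there, 3.4% lay lower in Mono+MCTR3 mice without overlap and 0.411% higher. In neutrophils Ifit3 alone of 25 did not overlap, where 1.4% of all genes lay lower without overlap, and in T-cells Ifi47 alone of 12, where 1.48% did.

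T-cell and MDM calls appeared only without the filter on low counts. In T-cells these were Ifit1 and Isg15 (0.215% of all genes called). Isg15 there measured 29.7, 141, 105 and 29.3 CPM in Mono and 15.0, 39.6, 27.2 and 4.74 CPM in Mono+MCTR3 mice, with the log2 fold change at -1.58 ± 0.55 (edgeR adjusted p = 0.904 with the filter). Mono mice 2 and 3 were the highest, and the groups overlapped. Without the richest T-cell of each mouse, Isg15 was 48.2 CPM in Mono mouse 2 and 19.6 CPM in Mono mouse 3, whose richest cell held 18 Isg15 UMIs, and the means were 31.0 ± 12.2 CPM in Mono and 18.0 ± 13.2 CPM in Mono+MCTR3 mice (SD, n = 4). In MDM 5 genes were called in that way, Rsad2, Gbp2, Ifit1, Ifit2 and Ifit3 (0.654% of all genes). Ifit1 was seen with 43 UMIs in the MDM of 3 Mono mice and with 0 in the other 5 mice, 2 of which had 8 and 6 MDM.

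**Figure D5:**
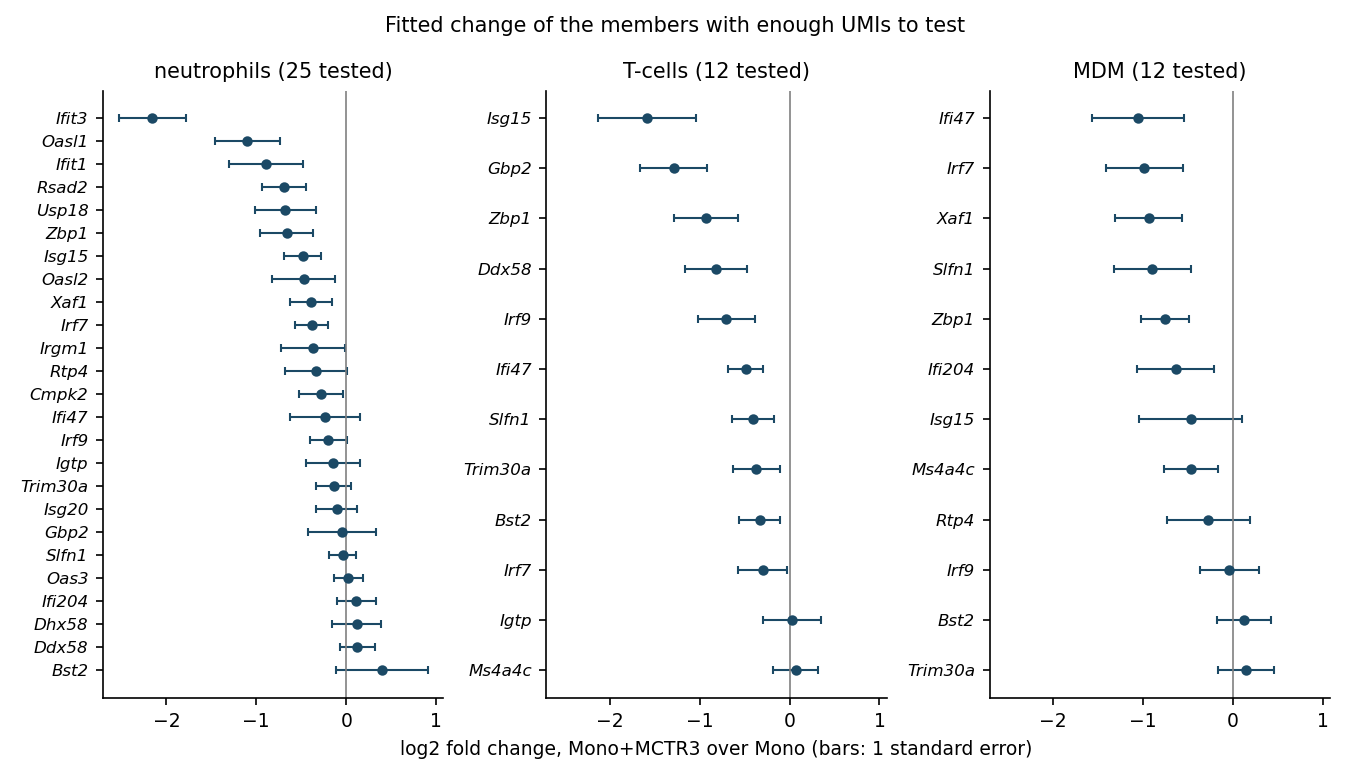
Log2 fold change (Mono+MCTR3 over Mono) of each tested gene in neutrophils, T-cells and MDM, with its standard error, from the edgeR quasi-likelihood test. Most points lie below 0 in all 3 classes, none passed an adjusted p of 0.05, and Ifit3 in neutrophils lies furthest below at -2.16 among the genes of that class.

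The upstream pathway was read from 43 genes, of which 42 were in the tables. Type I and III interferon ligands were nearly unseen: Ifnb1, the Ifna genes listed, Ifne, Ifnl2 and Ifnl3 had 0 UMIs, Ifnk had 1 and Ifnz had 2, so these cells give no measure of them at this depth. Ifng, the type II ligand, had 1746 UMIs, 1380 of them in NK cells (median 836 CPM) and 304 in T-cells (79.9 CPM). Its receptor gene Ifngr1 had medians of 1052 CPM in NK cells, 502 in MDM and 112 in neutrophils. The type I receptor gene Ifnar2 stood at 167 CPM in MDM and 82.4 in neutrophils. None of the pathway genes was called in any class (edgeR quasi-likelihood test, 12 to 27 tested per class), and 2 each in B-cells and T-cells and none elsewhere had an unadjusted p under 0.05. In all cells together the log2 fold change was -0.30 ± 0.58 for Ifng and -0.27 ± 0.19 for Ifngr1.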

How the data were processed

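The authors deposited raw UMI counts for each gene in each barcode, in a separate table for either group. They made these with Cell Ranger and STAR on GRCm38 and also list edgeR, whose versions are not in the sources used here, and the groups were aggregated separately. The labels do not say which suffix is which mouse; each suffix was 1 replicate. The genes and lists were chosen with earlier results of these data known.

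The filter asked for 250 to 3000 genes, 500 UMIs or more and no more than 5% mitochondrial UMIs, and kept most barcodes (10256 of 10538). Suffixes of a group shared 0 to 7 barcodes, and the groups 25. Scrublet called 52 doublets (0.507%), which were kept. Cells were clustered in Seurat 5.3.0 (R 4.3.3; 2000 variable genes, 20 components, resolution 0.5) with the 37 genes and 115 other interferon-stimulated genes left out of the variable genes, and named from at least 3 detected markers.

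Sums per class and mouse were tested with edgeR 4.0.16 (TMM, filterByExpr with the group labels, quasi-likelihood test, Benjamini-Hochberg over all genes tested). The SE follows from the F statistic, as the size of the log2 fold change over its square root. Thinned shares are exact expectations. Levels between classes were described without a test. In a simulation all genes of a class were given the same spread between mice, the common dispersion of edgeR. Genes with a wider spread, or carried by 1 mouse or cell, were not simulated. On simulated data, the test found 98.9% to 100% of genes with a log2 fold change of 2. Of those with 1, it found 47.9% (MDM) to 86.5% (NK cells). Of its 191 calls on the simulated data of neutrophils, 16 were false. Whether these shares hold for the listed genes was not tested. In the measured neutrophils Ifit3, at a log2 fold change of -2.16, was not called by this test. Named with tests were genes called, else the 3 with most UMIs in a class, and the 2 with most UMIs in each pathway role. Alternatives were DESeq2 1.42.0, the likelihood ratio test, library totals, no filter, other cell limits, other clusterings, doublets removed and each mouse left out; subset fits, the same subset mix, cells left out and the naming of Ifit3 and T-cell Isg15 were added after seeing the data. Positions are from GENCODE vM21. For 1 gene of the pathway list, the result is not reported here.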

Additional observations from a re-analysis of the deposited data

Results flagged for a closer look

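In 68 groups of 4 mice, 5 held a mouse whose gap to the nearest other exceeded Dixon's 95% critical value for the share of the group's range, where chance gives about 1 in 20. The T-cell sum of the listed genes was 1702 CPM in Mono mouse 2, against 971 to 1037 in the other Mono mice. The NK cell sum was 917 CPM in Mono+MCTR3 mouse 1, against 747 to 768 in the others of its group. In Ltf+Ngp+ neutrophils the sum was 698 CPM in Mono+MCTR3 mouse 3, against 359 to 407. Ms4a4c in B-cells was 70.3 CPM in Mono mouse 3, against 122 to 133. Ifit3 in neutrophils was 30.5 CPM in Mono mouse 2, against 11.8 to 13.9.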

How the results depend on the processing

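No listed gene was called by the edgeR quasi-likelihood test in any class. The number called became 1 in neutrophils by the likelihood ratio test, by DESeq2 and without the filter on low counts, 2 in T-cells and 5 in MDM without the filter, and 2 by the likelihood ratio test and 1 by DESeq2 in all cells; 67 other counts of calls stayed at 0. The median log2 fold change in T-cells became -0.92 without the filter. In neutrophils it ran from -0.35 to 0.10 and in B-cells from -0.030 to 0.072 over the settings tried, apart from those that leave out a mouse, so its sign turned in both. The difference of the neutrophil sum (Mono+MCTR3 minus Mono, -243 CPM) was 34.2 CPM within Retnlg+Mmp8+, 39.6 within Ltf+Ngp+, 59.9 within Fcnb+Chil3+ and -1009 within Tnf+Ccrl2+ cells, and that of T-cells (-407 CPM) was -147 without the 2 richest cells of each mouse. The difference of the MDM sum (-802 CPM) ran from -898 to -209 CPM over the settings tried, apart from those that leave out a mouse. With each mouse left out in turn, the differences ran from -367 to -105 CPM in neutrophils, -474 to -230 in T-cells and -1143 to -520 in MDM. The cause of these shifts was not tested.

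Of the named genes, 268 of their log2 fold changes under another setting kept direction and call. Slfn1 in neutrophils turned to 0.025 with all variable genes in the clustering, 0.027 at resolution 0.3, 0.024 at resolution 1.0, 0.026 with 10 components and 0.0074 with 30 components. By DESeq2, Bst2 in B-cells turned to -0.00440 and Trim30a to -0.030. With library totals, Il10rb turned to -0.12 and Unc93b1 to -0.028 in all cells, and without an upper limit on genes per cell Il10rb turned to -0.020. Leaving out 1 mouse at a time gave ranges through 0 for genes near 0. In neutrophils these were -0.14 to 0.087 for Slfn1 and -0.59 to 0.026 for Rtp4. In B-cells they were -0.14 to 0.19 for Bst2 and -0.10 to 0.16 for Trim30a, and in T-cells -0.052 to 0.34 for Ms4a4c. In NK cells they were -0.017 to 0.29 for Ifi47 and -0.018 to 0.17 for Zbp1, and in MDM -0.11 to 0.46 for Bst2. In all cells they were -0.041 to 0.35 for Slfn1, -3.46e-05 to 0.50 for Bst2, -0.62 to 0.30 for Ifng, -0.11 to 0.19 for Il10rb, -0.23 to 0.10 for Irf8 and -0.16 to 0.075 for Myd88. MDM values are limited by 8 and 6 cells in Mono+MCTR3 mice 3 and 4. No paired analysis was possible because the sample titles share no number between the groups and the barcode suffixes cannot be tied to the titles.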

Other observations

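Within MDM, the 48 cells that carried nonclassical monocyte markers (42 from Mono and 6 from Mono+MCTR3 mice) had sums of the listed genes of 432 to 1427 CPM in the 7 mice that held any, and none of them held 10 or more of the genes. The F13a1-led MDM had 1702, 3367, 1203 and 2971 CPM in Mono mice 1 to 4 and 1549, 1579, 545 and 1880 CPM in Mono+MCTR3 mice 1 to 4. Irf7, which plasmacytoid dendritic cells are known to hold ready, was seen in 55.1% of the 49 pDC-like cells, and Irf8 stood at 4464 CPM in them against a median of 1312 in NK cells and 9.5 in neutrophils.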
